A study of Mus musculus with 4 samples.

Results

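The 10 genes described here belong to glutathione metabolism and NRF2-dependent antioxidant defence and were followed in single cells of mouse bone. They are Gclc, Gclm, Slc7a11, Hmox1, Nqo1, Txnrd1, Prdx1, Srxn1, Gsr and Gstm1, taken by symbol from the count matrices, which is 10 of 31053 genes. Single-cell RNA sequencing (10x Genomics 3′ kit) had been done on the tibiae and femora of 4 wild-type mice, 1 library per mouse, after the marrow was flushed out with cold saline and the bone was digested with enzymes. Of these mice, 2 were untreated controls (Ctrl) and 2 were hindlimb-unloaded (HLU), that is, suspended by the tail for 28 days so that the hind limbs carried no weight. The labels name no transgene or drug, and the study's methods give the strain as C57BL/6J. The methods describe adult mice whereas the deposited design text speaks of postnatal day 28, so the age is not settled here.

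Each unique molecular identifier (UMI) stands for 1 captured transcript molecule. Barcodes with 1000 to 40000 UMIs and at most 10% mitochondrial UMIs were kept, which left 7340 and 7635 barcodes in Ctrl 1 and Ctrl 2 and 7757 and 9485 in HLU 1 and HLU 2, with 45347595 to 87604282 UMIs per library. Pairs of libraries shared 13 to 21 kept barcodes, under 0.3% of either library. Cells were put into classes by sets of known marker genes, none of which is among the 10 genes. The libraries differed in makeup: cells of cartilage, osteoblast and stromal type, called skeletal cells here, came to 3498 in Ctrl 1 and 2334 in Ctrl 2 but to 33 in HLU 1 and 88 in HLU 2. HLU 2 had fewer barcodes under 1000 UMIs than the other libraries and stood apart from HLU 1 in many of the genes described below, so results between conditions are also given with 1 HLU library left out.

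NRF2, encoded by Nfe2l2, is a transcription factor that KEAP1 marks for degradation until oxidants or electrophiles release it. NRF2 then binds antioxidant response elements beside small MAF proteins and raises genes that make glutathione, reduce oxidised proteins and break down haem and quinones. In myeloid cells these genes are known to counter the oxidants that the cells themselves produce. Among the 10 genes, Slc7a11 encodes the cystine importer that feeds glutathione synthesis, and it is also a target of the stress factor ATF4. Gclc and Gclm encode the catalytic and the modifier subunit of glutamate-cysteine ligase, the rate-limiting enzyme of that synthesis. Gsr encodes glutathione reductase, which returns oxidised glutathione to its reduced form, and Gstm1 a transferase that couples glutathione to electrophiles. Txnrd1 encodes the cytosolic thioredoxin reductase, Prdx1 a peroxiredoxin that removes hydrogen peroxide, and Srxn1 the sulfiredoxin that restores over-oxidised peroxiredoxins. Hmox1 encodes the inducible haem oxygenase and Nqo1 a quinone reductase.

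In the GRCm38 annotation (GENCODE M21) all 10 were protein-coding genes. Gclm (chr3:122245557-122270732, plus strand), Slc7a11 (chr3:49892526-50443614, minus strand) and Gstm1 (chr3:108012255-108017973, minus strand) lie on chromosome 3. Chromosome 8 holds Gsr (chr8:33652523-33698163, plus strand), Hmox1 (chr8:75093621-75100589, plus strand) and Nqo1 (chr8:107388225-107403206, minus strand). The other genes were Gclc (chr9:77754535-77794485), Txnrd1 (chr10:82833951-82897712), Prdx1 (chr4:116685544-116700822) and Srxn1 (chr2:152105516-152111376), all on the plus strand. The matrix also counts Eid3, which lies within Txnrd1 on the same strand, and Gm37854, antisense to Slc7a11. Gstm1 belongs to a family of similar genes, and how the counting split reads between them was not tested.

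The proximal promoters are shown because the antioxidant response element is the sequence through which NRF2 is known to act. RefSeq windows of 300 bases, from 250 bases before to 50 after a transcription start (build GRCm38.p6), were found for 7 of the 10 genes. They were searched on both strands for the core of the element, TGACNNNGC, and for the AP-1 type site TGACTCA, which can lie inside a core. The core occurred in 4071 of 32851 windows genome-wide (12.4%) and TGACTCA in 1709 (5.20%). The 7 genes had 10 windows between them, of which 4, in 4 genes, held a core and 2, in 2 of those genes, held TGACTCA. Slc7a11, Nqo1 and Gstm1 had windows without a match, and no window was found for Gclc, Hmox1 and Gsr. In mature neutrophils (below) the 4 genes with a core were higher than in immature ones, and so were Slc7a11 and Nqo1. The part of the core in that rise was not tested. The 10 genes were chosen as glutathione and NRF2 target genes, so the share of their windows with a core is not independent of that choice. The windows of Gclm (chr3:122245307-122245606), Prdx1 (chr4:116685349-116685648), Srxn1 (chr2:152105274-152105573) and 1 of 3 windows of Txnrd1 (chr10:82858956-82859255) read as follows 5′ to 3′ on the plus strand, with matches in capitals.
Gclm: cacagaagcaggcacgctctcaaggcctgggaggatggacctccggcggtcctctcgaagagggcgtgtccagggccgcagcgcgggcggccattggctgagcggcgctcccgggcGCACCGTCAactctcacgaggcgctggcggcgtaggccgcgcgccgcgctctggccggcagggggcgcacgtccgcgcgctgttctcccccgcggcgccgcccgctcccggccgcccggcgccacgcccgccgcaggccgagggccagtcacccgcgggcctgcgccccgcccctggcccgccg
Txnrd1: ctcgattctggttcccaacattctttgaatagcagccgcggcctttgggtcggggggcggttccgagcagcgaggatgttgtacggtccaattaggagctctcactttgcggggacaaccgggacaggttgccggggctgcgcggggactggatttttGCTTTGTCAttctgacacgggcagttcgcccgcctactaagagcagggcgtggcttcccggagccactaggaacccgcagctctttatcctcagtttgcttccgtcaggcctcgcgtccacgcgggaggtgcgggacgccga
Prdx1: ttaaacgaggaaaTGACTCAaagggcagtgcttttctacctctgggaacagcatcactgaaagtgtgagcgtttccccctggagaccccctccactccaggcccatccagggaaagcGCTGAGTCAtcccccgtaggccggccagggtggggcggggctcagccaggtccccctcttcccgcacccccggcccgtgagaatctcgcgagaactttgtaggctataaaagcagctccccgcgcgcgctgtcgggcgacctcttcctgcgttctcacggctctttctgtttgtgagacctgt
Srxn1: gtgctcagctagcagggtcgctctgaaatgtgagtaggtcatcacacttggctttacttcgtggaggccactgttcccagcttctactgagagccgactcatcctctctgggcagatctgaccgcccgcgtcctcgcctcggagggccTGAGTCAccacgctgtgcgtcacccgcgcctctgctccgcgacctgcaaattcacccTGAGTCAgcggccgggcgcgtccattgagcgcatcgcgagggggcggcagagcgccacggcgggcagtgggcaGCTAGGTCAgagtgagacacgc
The core began 134 bases before the start in Gclm, 92 before it in Txnrd1 and 133 before it in Prdx1, and 28 bases after it in Srxn1. In Prdx1 a TGACTCA site 131 bases before the start lay inside the core and another lay 237 bases before the start. Srxn1 had TGACTCA 102 and 45 bases before its start, outside the core. A match of letters is a description of the window and was not tested for binding.

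Levels are given in CPM, the UMIs of a gene per 1000000 UMIs of a cell class in 1 library, in the order Ctrl 1, Ctrl 2, HLU 1 and HLU 2, and they compare a gene between classes, not 1 gene with another. Slc7a11 was a transcript of the myeloid classes. It stood at 1208, 1119.8, 1486 and 1581 in mature neutrophils, 855, 692, 1093 and 872 in the monocyte lineage and 441, 268, 506 and 409 in immature neutrophils. The ranges of these 3 classes did not overlap. In skeletal cells it was 34.7, 30.1, 122 and 62.9, and in B cells 30.7, 33.6, 73.4 and 26.2. With every cell thinned to 2000 UMIs, a Slc7a11 UMI was found in 73.5, 70.4, 80.3 and 85.6% of mature neutrophils against 2.98, 4.94, 6.72 and 1.94% of B cells, the class with the lowest mean share among those with all 4 libraries. Before thinning the shares were 78.4, 79.5, 85.6 and 94.1% and 4.58, 8.72, 10.1 and 2.66%, at median depths of 2274.5, 2845, 2771.5 and 3847 and 3369, 3650.5, 3504 and 2470.5 UMIs per cell. Thinning left out 368, 241, 591 and 64 mature neutrophils and 9, 9, 16 and 119 B cells.

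**Figure D1:**
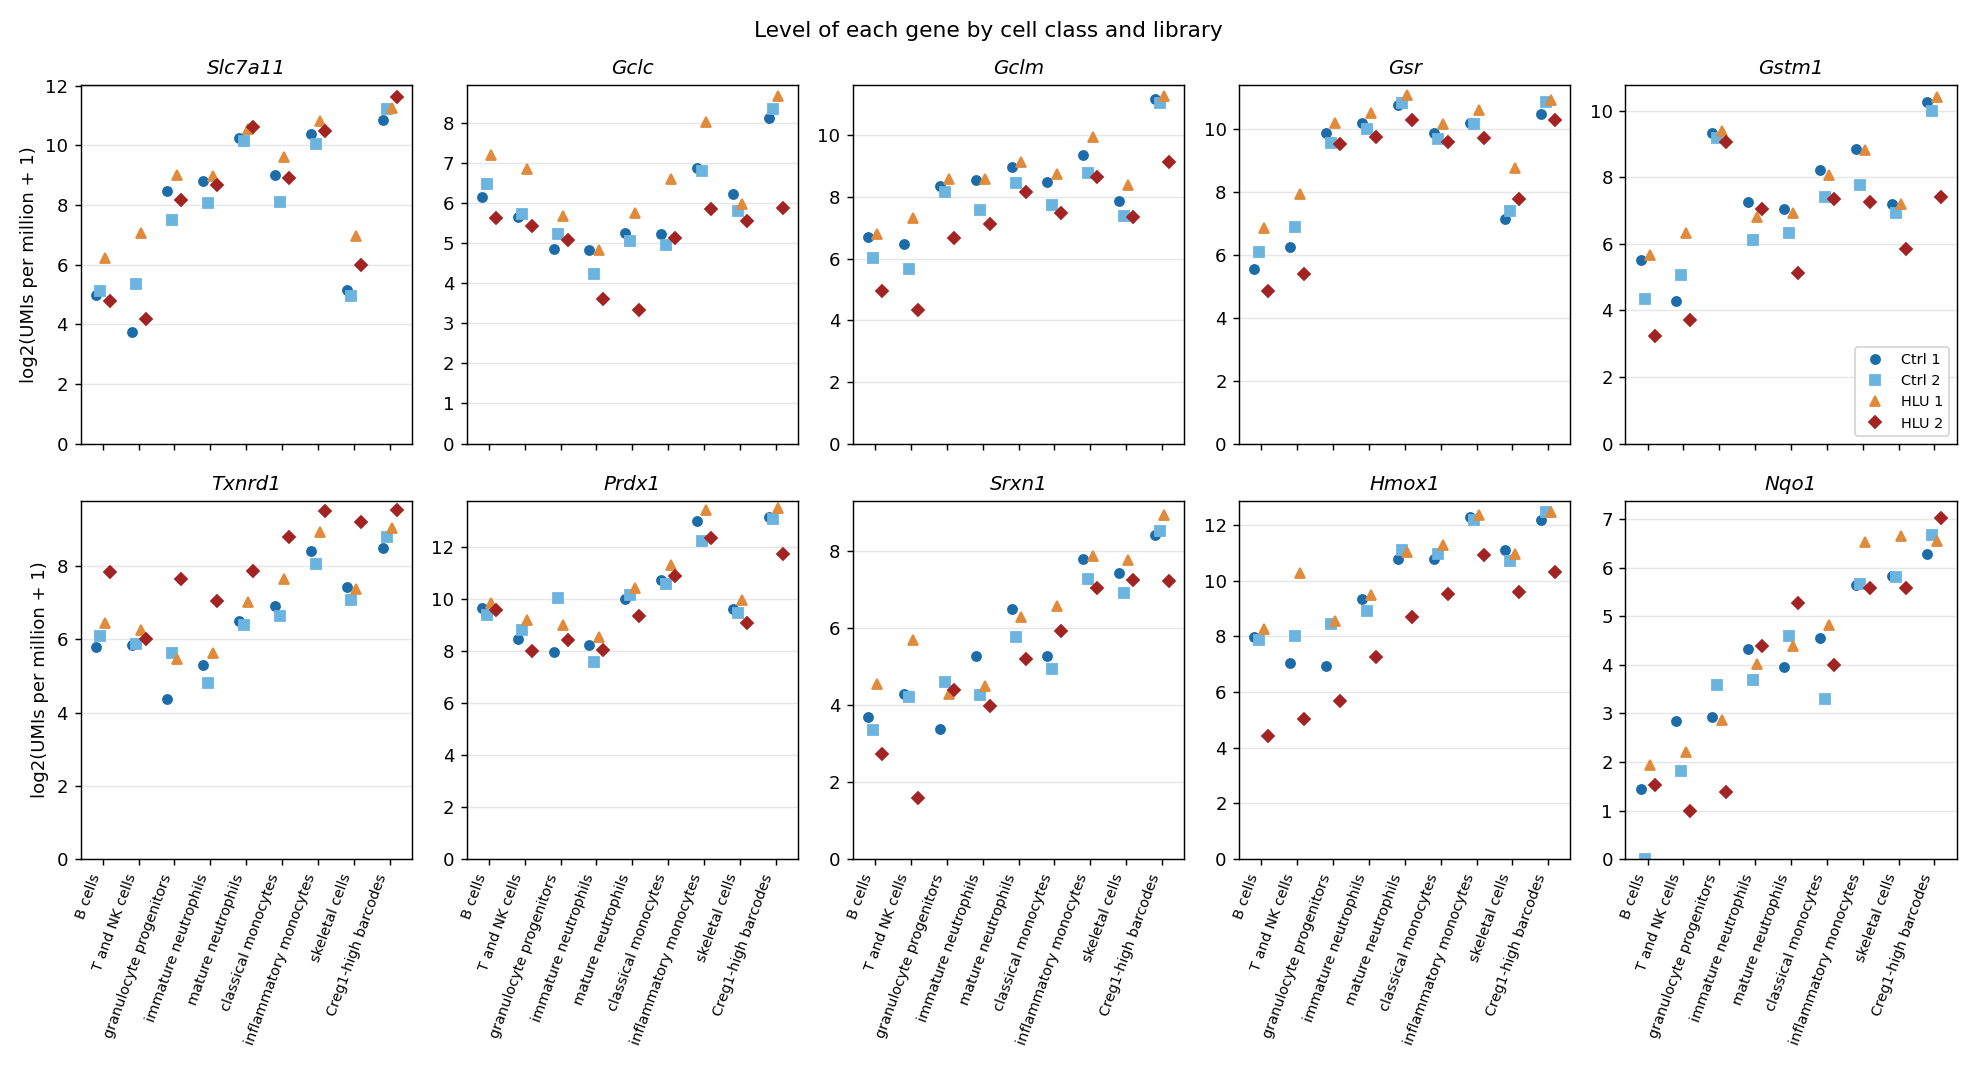
Level of each of the 10 genes (vertical axis, log2 of CPM plus 1, starting at 0) in 9 cell classes (horizontal axis), with 1 point for each of the 4 libraries. Slc7a11 and Gsr were high across granulocyte and monocyte classes and low in B, T and skeletal cells, Prdx1 and Hmox1 were highest in inflammatory monocytes and Creg1-high barcodes among the classes plotted, and the HLU 2 points of Hmox1 lie below those of the other libraries.

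Gsr had the same lineage pattern. Its level was 1752, 1819.7, 2189.8 and 1262 in mature neutrophils, 1183, 1029, 1462 and 870.5 in immature neutrophils and 943, 760.3, 1179 and 746 in granulocyte progenitors. These ranges overlapped between neighbouring classes. Skeletal cells held 140.1, 167, 430.4 and 218 and B cells 46.1, 67.1, 114 and 28.0, so every library had less Gsr in these classes than in any neutrophil class.

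The ligase subunits were spread more evenly between the myeloid and skeletal classes. Gclm stood at 577, 367, 669 and 271 in the monocyte lineage, 503, 348, 563 and 284 in mature neutrophils and 233, 166, 331 and 161 in skeletal cells, with overlapping ranges. It was lower in B cells, with a mean of 76.4 (29.9 to 110), and in T and NK cells, with a mean of 78.6 (19.0 to 158). Gclc was 94.1, 78.2, 153 and 43.5 in the monocyte lineage and 69.9, 87.4, 146 and 48.6 in B cells, against 37.4, 32.1, 52.6 and 9.06 in mature neutrophils. HLU 2 had the lowest Gclc of the 4 libraries in each of these 3 classes.

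Within the peroxiredoxin cycle, Prdx1 was 5653, 4019, 6136 and 3233 in the monocyte lineage against 1031, 1125, 1359 and 641 in mature neutrophils, without overlap. The mature neutrophil level came from a minority of cells: at 2000 UMIs per cell only 24.6, 24.1, 26.7 and 27.5% of them held a Prdx1 UMI, against 66.3, 69.5, 89.5 and 93.2% of monocyte-lineage cells. Before thinning the shares were 27.6, 31.2, 33.0 and 39.9% and 89.4, 91.4, 98.8 and 99.6%, the monocyte lineage having a median depth of 9983, 9888.5, 12003.5 and 13246 UMIs per cell, and thinning left out 1, 3, 5 and 14 of its cells. Prdx1 was detected in every class, so no class gave a background share. Txnrd1 was 228, 200.1, 296 and 559.8 in the monocyte lineage and 172, 133, 163.5 and 593 in skeletal cells. In both classes HLU 2 was the highest library. Srxn1 was 172, 119, 218 and 150.4 in skeletal cells and 151, 108, 146 and 88.3 in the monocyte lineage, and these ranges overlapped.

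Hmox1, the haem oxygenase gene, was 3706, 3676, 3692 and 1242 in the monocyte lineage, 2202, 1678, 1999.6 and 761 in skeletal cells and 1763, 2196, 2102 and 414 in mature neutrophils. HLU 2 was the lowest library in all 3 classes. The 49 resident macrophages of HLU 2, the only library with at least 20 such cells, held 12136. Nqo1 was 55.8, 55.0, 99.6 and 47.2 in skeletal cells and 40.9, 36.6, 59.9 and 28.4 in the monocyte lineage. In B cells only 1, 0, 7 and 2 Nqo1 UMIs were counted, and the count of 0 allows up to 3.05 CPM. Gstm1 had its highest level among the classes named so far in granulocyte progenitors, at 640.5, 585, 669.7 and 531, with no overlap with the monocyte lineage at 439.5, 265, 439 and 164.

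Cells outside every class included barcodes rich in Creg1, called by this gene only and chosen with their Gclm level already known, so they are described without a test. They numbered 335, 228, 561 and 647. Gclm stood at 2295, 2094, 2486 and 555, Gstm1 at 1223, 1025, 1368 and 171 and Prdx1 at 9057, 8537, 11459 and 3393 CPM in them. In Ctrl 1, Ctrl 2 and HLU 1 each of these levels lay above that of the same gene in every mature neutrophil library, and HLU 2 held the lowest value of each. At 2000 UMIs, the mean number of the 10 genes found per Creg1-high barcode was 6.85, 6.45, 7.04 and 5.14, against 3.51, 3.28, 3.81 and 3.25 in mature neutrophils, 4.10, 3.90, 5.16 and 4.67 in the monocyte lineage and 1.45, 1.42, 1.61 and 1.35 in B cells.

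Differences between classes were tested on counts summed per library and class, with edgeR's quasi-likelihood test, the library as a block and Benjamini-Hochberg adjustment over all genes tested. Classes were set from markers whose thresholds were chosen after marker values were seen. Mature neutrophils were compared with their immature precursors to see whether the antioxidant genes change along granulocyte maturation. The mature markers included Il1b, Trem1 and Clec4d, and the class was not split by activation state. Maturation and activation cannot be told apart in this comparison. Of the 10 genes 9 were higher in mature neutrophils and 0 were lower, at a background of 28.4% of 11123 genes higher and 28.4% lower. The median log2 fold change of the 10 genes was 1.14, against 0.01 over all genes tested. Median depth was 7182.5, 5393, 6863.5 and 8801 UMIs per immature and 2274.5, 2845, 2771.5 and 3847 per mature neutrophil.

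Prdx1 rose from 299, 190.0, 374 and 259 CPM in immature to 1031, 1125, 1359 and 641 in mature neutrophils, which is 2.02 ± 0.17 as log2 fold change ± SE (edgeR adjusted p = 4.1e-06). The cystine importer Slc7a11 rose by 1.90 ± 0.17 (adjusted p = 8.1e-06). Hmox1 went from 644, 474, 709 and 150.3 to 1763, 2196, 2102 and 414, by 1.81 ± 0.16 (adjusted p = 5.8e-06). In each of these genes every library was higher in its mature than in its immature neutrophils. Srxn1 rose by 1.63 ± 0.16 and Txnrd1 by 1.41 ± 0.13 (edgeR adjusted p = 1.1e-05 and 9.9e-06).

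The ligase and reductase genes had smaller fold changes. Gclm was higher by 0.87 ± 0.17, Gsr by 0.77 ± 0.14 and Gclc by 0.67 ± 0.18 (edgeR adjusted p = 0.0015, 6.5e-04 and 0.0089). Nqo1 was higher by 0.68 ± 0.24 (adjusted p = 0.034), in 3 of 4 libraries. Gclc and Nqo1 were no longer called without TMM factors (0.53 and 0.51) or with 1 more marker required per class (0.47 and 0.55). Gclc also lost its call without Ctrl 2 (0.53) or HLU 1 (0.48), and Nqo1 without Ctrl 2 (0.50), HLU 1 (0.71) or HLU 2 (0.36). The scaling without TMM factors moved the median of all genes from 0.01 to -0.13. Gstm1 did not pass the test, at 151, 67.9, 111 and 130.4 in immature and 131, 79.5, 122 and 34.0 in mature neutrophils (-0.28 ± 0.25, adjusted p = 0.38). Under the stricter gate it was called lower, at -0.66 (adjusted p = 0.038).

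**Figure D2:**
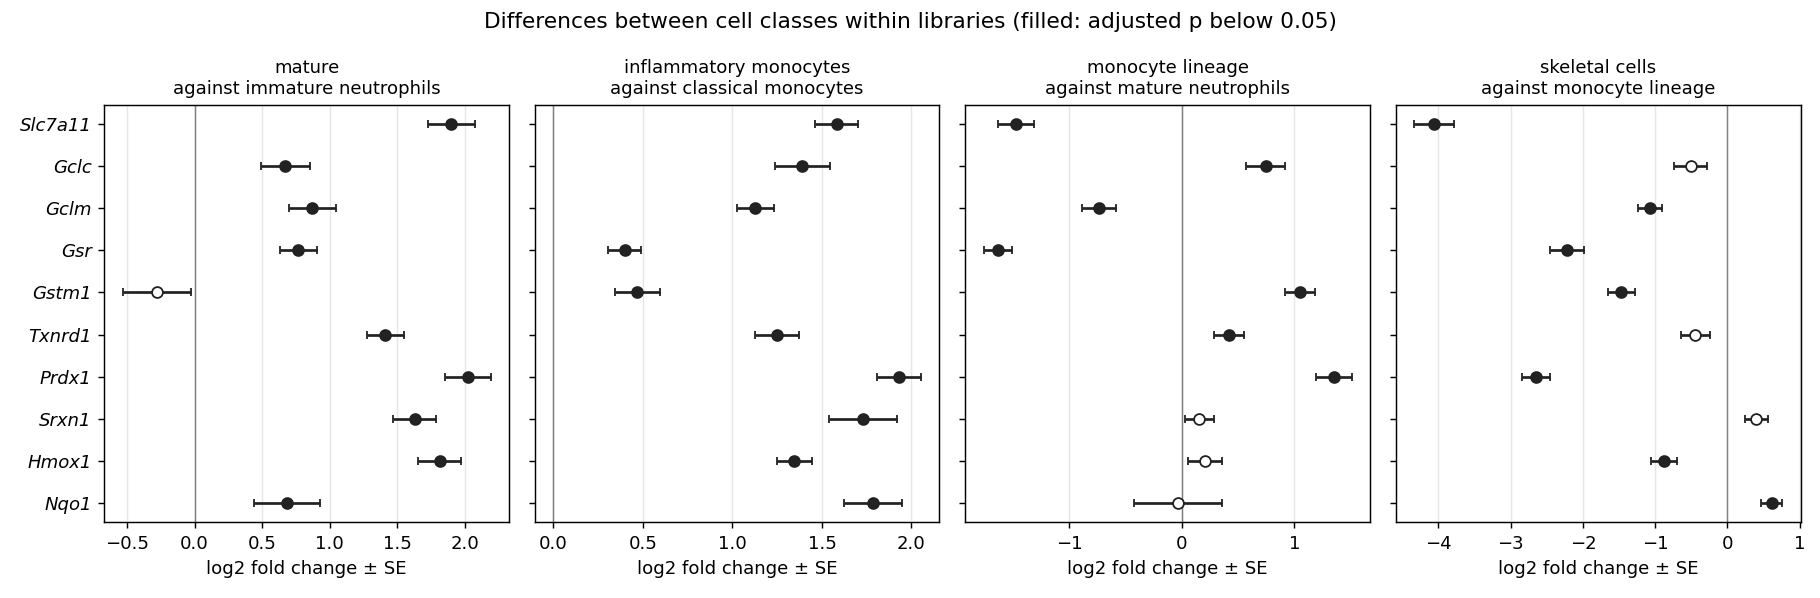
Log2 fold change of each gene (horizontal axis) in 4 comparisons of cell classes across 4 libraries. Bars are a standard error worked out from edgeR's fold change and F statistic. Filled points have an adjusted p under 0.05. Points lie to the right of 0 for 9 genes in mature against immature neutrophils and for all 10 genes in inflammatory against classical monocytes, while the other comparisons have genes on both sides of 0.

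Other genes of the pathway, 60 in all, differed in both directions between mature and immature neutrophils. Of 57 tested, 27 were higher in mature neutrophils and 15 lower, with a median log2 fold change of 0.35. Of the 7 regulators (Nfe2l2, Keap1, Bach1, Nfe2l1 and the small MAF genes) 6 were higher and 0 lower. Of 18 further glutathione genes 6 were higher and 6 lower, and of 9 further thioredoxin and peroxiredoxin genes 2 were higher and 4 lower. The largest rises were in the gamma-glutamyl transferases Ggt1 (2.91) and Ggt5 (2.75), which cleave extracellular glutathione conjugates, the iron exporter Slc40a1 (1.90) and Osgin1 (1.79). The largest falls were in the microsomal transferases Mgst2 (-2.12) and Mgst3 (-1.71), the glyoxalase Glo1 (-1.84) and the biliverdin reductase Blvra (-1.80). Beside these, 7 of 14 genes known to be induced by tissue dissociation were higher in mature neutrophils and 0 lower. Of 8 ATF4 targets, a list that also holds Atf3 of the dissociation list, 4 were higher and 1 lower. The part of both lists in the rise of the 10 genes was not tested.

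Monocyte-lineage cells with more UMIs of inflammatory markers (Serpinb2, Ptgs2, Il1a, Cxcl3, Arg1, Nos2) than of classical markers (Ly6c2, Ccr2, F13a1, Ms4a4c) were compared with those in which the classical markers held more. There were 98, 161, 134 and 584 inflammatory and 73, 91, 242 and 514 classical monocytes. All 10 genes were higher in inflammatory monocytes, in 4 of 4 libraries each on the TMM-scaled level, at a background of 12.0% of 9010 genes higher and 12.9% lower. Their median log2 fold change was 1.37, and the median of all genes tested was 0.00.

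Prdx1 rose most, from 1684, 1502, 2534 and 1869.6 CPM in classical to 8158, 4833, 10925 and 5133 in inflammatory monocytes (1.93 ± 0.12, edgeR adjusted p = 2.1e-06). Its partner gene Srxn1 went from 37.4, 29.9, 93.4 and 59.7 to 220.2, 154, 231 and 131 (1.73 ± 0.19, adjusted p = 8.0e-05). Txnrd1 was higher by 1.25 ± 0.12 (adjusted p = 4.2e-05). For Prdx1 and Srxn1 the ranges of both classes did not overlap. Slc7a11 rose from 511, 276, 775 and 478 to 1339, 1068, 1804 and 1441 (1.58 ± 0.12, edgeR adjusted p = 6.6e-06). Gclc rose by 1.39 ± 0.15 and Gclm by 1.13 ± 0.10 (edgeR adjusted p = 8.6e-05 and 3.0e-05).

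The haem oxygenase gene Hmox1 went from 1773, 2001, 2497 and 735 to 5024, 4669.6, 5301 and 1916 (1.35 ± 0.10, edgeR adjusted p = 4.8e-06). Nqo1 went from 22.5, 8.88, 27.2 and 15.0 to 48.9, 49.6, 91.8 and 47.0 (1.78 ± 0.16, adjusted p = 2.9e-05). Gsr and Gstm1 differed least, by 0.40 ± 0.09 and 0.47 ± 0.13 (edgeR adjusted p = 0.0090 and 0.017). Gstm1 was no longer called under the stricter gate (0.47, adjusted p = 0.15). Before TMM scaling Gstm1 of HLU 2 was 154 CPM in inflammatory and 162 in classical monocytes, the other way round. Gsr lost its call without HLU 1 (0.35, adjusted p = 0.071), and Gstm1 without Ctrl 1 (0.43, adjusted p = 0.075) or HLU 1 (0.34, adjusted p = 0.12). Without TMM factors the split over all genes was 818 higher and 1392 lower in place of 1079 and 1165, and all 10 genes were again higher.

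Of 52 further pathway genes tested, 23 were higher and 7 lower in inflammatory monocytes, with a median of 0.32. Within these, the glutathione group had 4 of 14 higher and 5 lower and the thioredoxin and peroxiredoxin group 2 of 9 higher and 2 lower. The risers included Slc40a1 (1.55), Sqstm1 (1.37), the autophagy receptor that binds KEAP1, the conjugate exporter Abcc1 (1.27) and the malic enzyme gene Me1 (1.24), a source of NADPH. Among the fallers were Mgst3 (-1.74), Glo1 (-0.72) and the peroxiredoxins Prdx4 (-0.69) and Prdx2 (-0.62). Of 8 ATF4 targets 0 were called in either direction by edgeR and 2 had an unadjusted p under 0.05, as had 3363 of all 9010 genes tested. Of 14 dissociation genes, a list that shares Atf3 with the ATF4 list, 3 were higher and 1 lower. The summed level of the 10 mature neutrophil markers, which include Il1b, was 2685, 1935, 3073 and 3423 CPM in classical and 6182, 5146, 6089 and 10128 in inflammatory monocytes. At least 9 of the 10 markers were detected in each library of both classes, and Stfa2l1 was at 0 in inflammatory monocytes of Ctrl 1. S100a8 and S100a9 made up 0.247, 0.285, 0.321 and 0.39% and 0.208, 0.44, 0.316 and 0.327% of UMIs, against 18.0, 18.2, 19.8 and 28.0% in mature neutrophils. The gates used these genes: monocyte-lineage cells had under 5% of UMIs from them and mature neutrophils at least 5%. That contrast with mature neutrophils was therefore fixed in advance. The 6 resident macrophage markers summed to at most 10.2 CPM in either class, with Cd5l at 0 in 3 of the 4 libraries of classical and in every library of inflammatory monocytes. Cells with at least 3 of these markers were kept out of the monocyte lineage, so a low sum was in part set by the gate. The part of neutrophil transcripts in the result was not tested.

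Whether the 10 genes separate monocyte-lineage cells from mature neutrophils was tested the same way. In the monocyte lineage 4 were higher (Prdx1, Gstm1, Gclc and Txnrd1) and 3 lower (Gsr, Slc7a11 and Gclm), at a background of 31.4% of 10846 genes higher and 32.8% lower. Prdx1 was higher by 1.35 ± 0.16, Gstm1 by 1.05 ± 0.13, Gclc by 0.74 ± 0.17 and Txnrd1 by 0.42 ± 0.13 on the log2 scale (edgeR adjusted p = 4.6e-04, 6.7e-04, 0.0085 and 0.029). Gsr differed by -1.64 ± 0.12 and Slc7a11 by -1.47 ± 0.16 (edgeR adjusted p = 9.4e-05 and 3.4e-04). Gclm differed by -0.74 ± 0.15 (adjusted p = 0.0050) but its sign turned to 0.11 without TMM factors, a scaling that moved the median of all genes from 0.04 to 0.89. Under that scaling 5811 genes were higher and 1655 lower in place of 3401 and 3556, and 6 of the 10 genes were higher and 2 lower. Relative to the median of all genes, Gclm was below it under both scalings. Hmox1 (0.20), Srxn1 (0.15) and Nqo1 (-0.04, but 0.82 without TMM factors) did not pass. Txnrd1 lost its call without Ctrl 1 (0.35, adjusted p = 0.13) or Ctrl 2 (0.43, adjusted p = 0.098), and Nqo1 passed without HLU 2 (0.54, adjusted p = 0.044). The further glutathione genes had 6 of 19 higher and 8 lower in the monocyte lineage, and the further thioredoxin and peroxiredoxin genes 5 of 9 higher and 3 lower. Of all 58 further pathway genes tested 18 were higher, led by Mgst3 (3.26), Gstm2 (3.24), Prdx2 (2.82) and Blvra (2.74). The 23 lower ones were led by Ggt1 (-6.08), Ggt5 (-5.89), Slc40a1 (-4.49) and Osgin1 (-2.98).

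Skeletal cells were set against the monocyte lineage as the class outside haematopoiesis. Nqo1 was higher in them (0.61 ± 0.15, edgeR adjusted p = 0.0077) and 6 of the 10 genes were lower, at a background of 28.0% of 12106 genes higher and 29.0% lower. Slc7a11 differed by -4.06 ± 0.27, Prdx1 by -2.65 ± 0.20 and Gsr by -2.22 ± 0.24 (edgeR adjusted p = 1.0e-05, 1.7e-05 and 1.2e-04). Gstm1 (-1.47), Gclm (-1.07) and Hmox1 (-0.88) were lower as well. Srxn1 was at 0.40 ± 0.16 (adjusted p = 0.061) and passed with DESeq2, under the stricter gate and without HLU 2 (0.41, adjusted p = 0.048). The median of the 10 genes was -0.98, against -0.06 over all genes tested. Txnrd1 (-0.45) and Gclc (-0.51) did not pass. Of 59 further pathway genes 18 were higher in skeletal cells, led by the secreted enzymes Sod3 (6.96) and Gpx3 (6.34), then Ephx1 (5.16) and Gstm5 (3.73), and 25 were lower, led by Idh1 (-4.70) and Mgst1 (-3.01).

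Hindlimb unloading was compared with control by summing each library over all kept barcodes and then within 4 classes. Levels here are CPM scaled with TMM factors. Over all kept barcodes Slc7a11 was 273, 270.0, 791 and 709, so both HLU libraries lay above both Ctrl libraries, and the log2 fold change was 1.46 ± 0.27 (edgeR adjusted p = 0.021). It was the only one of the 10 genes that passed, at a background of 23.2% of 15385 genes called and 6.06% called higher. The call was lost without either Ctrl library, with the fold change at 1.47 without Ctrl 1 and 1.45 without Ctrl 2. Losing a call higher in a fit with 1 Ctrl library was not particular to this gene. Skeletal cells, in which Slc7a11 was low, were far fewer in the HLU libraries, and in sums over all barcodes more cells of a type and more RNA per cell cannot be told apart. Within mature neutrophils the same gene was 1132, 1087, 1343 and 1955 (0.57 ± 0.37, adjusted p = 0.62). In skeletal cells it was 37.8, 33.8, 105 and 60.0 (1.18 ± 0.31, adjusted p = 0.25), and it was called there without the filter on low counts and without HLU 2 (1.59, adjusted p = 0.036). In both classes the HLU libraries again lay above the Ctrl libraries, but neither difference passed in edgeR's test. The 10 mature neutrophil markers summed to 130, 166, 351 and 162 CPM in skeletal cells before TMM scaling. That sum was highest in HLU 1, as Slc7a11 was, and within the Ctrl range in HLU 2. Putative doublets made up 3.52, 2.61, 0 and 14.8% of the skeletal cells. The part of neutrophil transcripts and doublets in the skeletal difference was not tested. For Slc7a11 the groups overlapped in immature neutrophils, at 454, 271, 471 and 424, and in the monocyte lineage, at 905, 679, 1051 and 882. The monocyte lineage included 98 of 207, 161 of 290, 134 of 430 and 584 of 1263 cells classed as inflammatory. Makeup and level cannot be told apart in its sum either. Both HLU libraries lay above both Ctrl libraries in inflammatory monocytes (levels above), but not in classical ones, and conditions were not tested within these subclasses.

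Gsr had the same direction over all barcodes, at 481, 581, 1374 and 876 (1.08 ± 0.35, edgeR adjusted p = 0.080). It passed with DESeq2 (adjusted p = 0.017), which called 4674 of 15385 genes. Within mature neutrophils it was 1642, 1766, 1979 and 1560.0, with 1 HLU library above and the other below both Ctrl libraries. In skeletal cells Gsr was 153, 188, 371 and 208. Both HLU libraries, with 33 and 88 such cells, lay above both Ctrl libraries there, but the difference did not pass in edgeR's test. Srxn1 (-1.05 ± 0.37, adjusted p = 0.10) and Nqo1 (-0.68 ± 0.23, adjusted p = 0.093) had lower values in both HLU libraries over all barcodes, with an unadjusted p under 0.05 in edgeR. That cut was passed by 4 of the 10 genes and by 5875 of all 15385 genes tested. In skeletal cells, far fewer in the HLU libraries, Srxn1 was 187.0, 133, 187.7 and 144 and Nqo1 60.7, 61.7, 85.8 and 45.0. In no single class did both HLU libraries lie below both Ctrl libraries for either gene. Makeup and level cannot be told apart in the sums over all barcodes. Over all barcodes, 5 of the 10 genes had groups that did not overlap, which also held for 66.9% of all genes, and Gclm had 1 HLU library on either side, as had 16.7% of all genes.

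**Figure D3:**
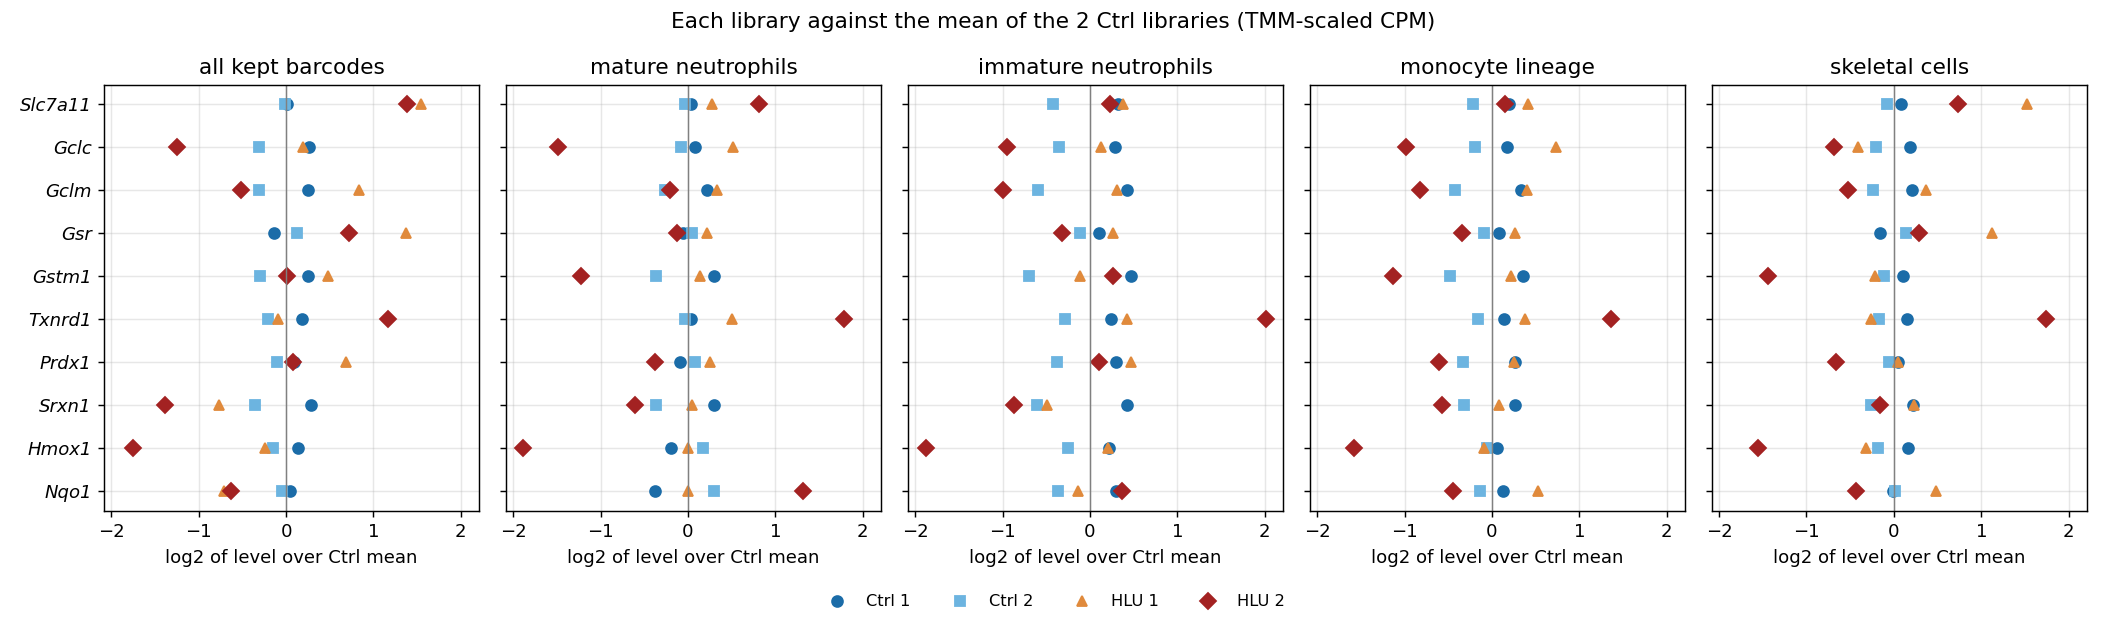
Each library's level of each gene divided by the mean of both Ctrl libraries (horizontal axis, log2 of TMM-scaled CPM), for all kept barcodes and 4 cell classes. Slc7a11 of both HLU libraries lies to the right over all barcodes. In every panel Hmox1 of HLU 2 lies at -1.56 or below and Txnrd1 of HLU 2 at 1.17 or above, while HLU 1 lies between -0.31 and 0.20 for Hmox1 and between -0.26 and 0.50 for Txnrd1.

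Within single classes edgeR called 0 of the 10 genes in mature neutrophils (background 3.94% of 8906 genes), 0 in immature neutrophils (2.71% of 11512), 0 in the monocyte lineage (0% of 10276) and 0 in skeletal cells (0% of 12892). All 351 genes called in mature and all 312 called in immature neutrophils were lower in HLU, and 0 were higher. At an unadjusted p under 0.05 in edgeR the counts were 1, 1, 0 and 1 of the 10 genes. Over all genes they were 1053 of 8906, 1386 of 11512, 455 of 10276 and 1809 of 12892. DESeq2 called 0 of the 10 genes in each of these 4 classes. Over all genes of the monocyte lineage and of skeletal cells, where edgeR called 0, DESeq2 called 71 and 303. HLU libraries lay on 1 side of the Ctrl libraries for 2 of 10 genes in mature neutrophils (43.5% of all genes), 1 in immature neutrophils (44.5%), 2 in the monocyte lineage (38.0%) and 5 in skeletal cells (49.2%). One HLU library lay above and the other below both Ctrl libraries for 3 genes in mature neutrophils (19.2% of all genes), 1 in immature neutrophils (20.3%), 4 in the monocyte lineage (21.7%) and 3 in skeletal cells (31.8%).

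Txnrd1 had the largest fold changes within the neutrophil classes. In immature neutrophils it was 39.4, 27.2, 45.1 and 137, a log2 fold change of 1.45 ± 0.55 (edgeR adjusted p = 0.38), and in mature neutrophils 84.3, 80.2, 117 and 286 (1.29 ± 0.47, adjusted p = 0.33). It was called in both without the filter on low counts, where 1284 of 18379 genes were called in immature and 1065 of 16355 in mature neutrophils. In the monocyte lineage it was 241, 197, 284 and 566 (0.96 ± 0.41, adjusted p = 0.81). In these 3 classes both HLU libraries were above the Ctrl libraries, and most of the distance was that of HLU 2. In skeletal cells Txnrd1 was 187, 149.8, 141 and 566, with HLU 1 below and HLU 2 above both Ctrl libraries.

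Hmox1 went the other way in the same library. It was 1652, 2131, 1899 and 512 in mature neutrophils (-0.65 ± 0.61, edgeR adjusted p = 0.74) and 3922, 3612, 3550.4 and 1256 in the monocyte lineage (-0.65 ± 0.53, adjusted p = 0.81). Skeletal cells held 2398, 1884, 1722 and 726 (-0.81 ± 0.46, adjusted p = 0.46). HLU 1 was within or just below the range of the Ctrl libraries in these classes, whereas HLU 2 was far below it. Gclc of mature neutrophils was 35.0, 31.2, 47.5 and 11.2 and Gstm1 of the monocyte lineage 465, 261, 422 and 166, so HLU 2 was the lowest library for these genes too.

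The HLU libraries were farther from each other than the Ctrl libraries were for 7 of the 10 genes over all barcodes, 9 in mature neutrophils, 5 in immature neutrophils, 9 in the monocyte lineage and 8 in skeletal cells. This was not counted over all genes, so it does not set the 10 genes apart from others. In mature neutrophils the median gap on the log2 scale was 0.97 between the HLU and 0.27 between the Ctrl libraries, whereas in immature neutrophils it was 0.55 between the HLU and 0.67 between the Ctrl libraries. With HLU 1 left out, HLU 2 alone against both Ctrl libraries gave 6 called genes over all barcodes, 6 in mature neutrophils, 4 in immature neutrophils, 6 in the monocyte lineage and 3 in skeletal cells. In the same fits 47.9%, 32.5%, 33.5%, 38.1% and 3.63% of all genes tested were called. This fit assumes that the lone library varies like the Ctrl group. Hmox1 was then lower by 1.68, 1.88, 1.85, 1.59 and 1.58 on the log2 scale in these 5 sums. Txnrd1 was higher by 1.25, 1.80, 2.07, 1.37 and 1.73, and both genes were called in all 5. With HLU 2 left out instead, the counts of called genes were 3, 0, 0, 1 and 1, against 37.8%, 9.64%, 3.47%, 3.35% and 1.41% of all genes tested. The fold changes of Hmox1 and Txnrd1 in mature neutrophils were 0.04 and 0.54 with neither called. HLU 1 on its own was higher in Slc7a11 (1.54) and Gsr (1.37) and lower in Nqo1 (-0.73) over all barcodes, higher in Gclc of the monocyte lineage (0.75) and higher in Slc7a11 of skeletal cells (1.59).

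Several other measures moved with the libraries. Skeletal transcripts (27 markers) summed to 4582, 4041, 42.0 and 60.4 CPM in mature neutrophils, 3357, 3192, 177 and 122 in immature neutrophils and 753, 1003, 39.1 and 128 in the monocyte lineage. The 14 dissociation genes summed to 5933, 5067, 3305 and 1913 in mature neutrophils, 3550.1, 3944, 2771 and 2062 in the monocyte lineage and 12915.5, 7916, 9457 and 3066 in skeletal cells, lowest in HLU 2 each time. The 8 ATF4 targets, a group that shares Slc7a11 with NRF2, summed to 675, 937, 626 and 172 in mature neutrophils and 723, 738, 688 and 277 in the monocyte lineage, again lowest in HLU 2. This list includes Atf4 itself and shares Atf3 with the dissociation list, so these sums are not independent. The part of all these measures in the differences of Hmox1, Txnrd1 and Slc7a11 was not tested.

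Of the 60 further pathway genes 7 were higher and 12 lower over all HLU barcodes, at a background of 932 higher and 2636 lower among 15385 genes tested. The largest rises were in G6pdx (1.80), the first enzyme of the pentose phosphate pathway, Ggt5 (1.60), Ggt1 (1.54) and Mgst2 (1.45). The largest falls were in Sod3 (-6.41), Ephx1 (-5.62), Gpx3 (-4.81) and Me1 (-4.33). The same 4 fell within mature neutrophils, where 0 of 55 rose and 5 fell, and within immature neutrophils, where 0 of 57 rose and 4 fell. With Gstm5, a set chosen after its values were seen, these genes summed to 209, 169.9, 2.40 and 1.99 CPM in mature neutrophils and 2576, 2439, 1366 and 1650.3 in skeletal cells, so they moved with the skeletal transcripts given above. Of the pathway genes edgeR called 0 of 56 in the monocyte lineage and 0 of 59 in skeletal cells, with 4 and 9 at an unadjusted p under 0.05. Over all genes that cut was passed by 455 of 10276 and 1809 of 12892.

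Whether a class difference changed with unloading was tested as an interaction for the 10 genes in the 4 class comparisons. Of these 40 tests 0 had an adjusted p under 0.05 in edgeR and 4 had an unadjusted p under 0.05. Over all genes tested, an unadjusted p under 0.05 was found for 9.18% in the monocyte lineage against mature neutrophils, 8.11% in mature against immature neutrophils, 9.05% in skeletal cells against the monocyte lineage and 6.27% in inflammatory against classical monocytes, and 0.249%, 0.180%, 0.0991% and 0.0999% were called. The smallest adjusted p was 0.13, for Srxn1 in inflammatory against classical monocytes, where the difference between classes was 1.14 ± 0.22 smaller on the log2 scale in HLU than in Ctrl libraries. With 2 libraries a group, the tests above cover the spread between these libraries only.

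Co-detection was examined at 2000 UMIs per cell as the share of cells with both genes divided by the product of their shares, so that 1 is the value for independent detection. Pairs were used if at least 5 cells were expected to hold both genes after thinning in every library. This count belongs to the numerator of the ratio and is not the count under independent detection. At given shares a higher ratio therefore made it easier for a pair to qualify. The ratios describe cells of 4 libraries without a test. In mature neutrophils 39 of 45 pairs qualified, 35 of these were above 1 in all 4 libraries, 0 were below 1 in all 4, and the median ratio was 1.13. Nqo1 and Srxn1 had the highest mean ratio, 2.85, followed by Prdx1 and Gstm1 at 2.45 and Txnrd1 and Gstm1 at 2.17. The ratio of Nqo1 and Srxn1 ran from 1.74 to 4.26 between libraries, with as few as 5.41 cells expected to hold both. Both ligase subunits, Gclc and Gclm, stood at 1.44. Pairs with Gsr, a transcript found in nearly all these cells, were at most 1.02. Putative doublets were kept and mature neutrophils were not split into subclasses, so the part of pooled unlike cells in these ratios was not examined.

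In the monocyte lineage 43 of 45 pairs qualified and all 43 were above 1 in all 4 libraries, with a median of 1.15. This class pools inflammatory and classical monocytes, and every gene of the set was higher in the inflammatory ones. Such pooling can give ratios above 1 even where detection is independent within each subclass. Ratios within the subclasses were not examined. The highest ratio was 2.00, for Gclc and Srxn1, and the lowest 1.02, for Prdx1 and Gsr. Gclc and Gclm stood at 1.55. Genes with high detection cannot reach a high ratio, so ratios of different pairs do not rank the strength of their link. At 1000 UMIs per cell 26 of 32 pairs in mature neutrophils and 35 of 35 in the monocyte lineage were above 1 in all libraries.

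**Figure D4:**
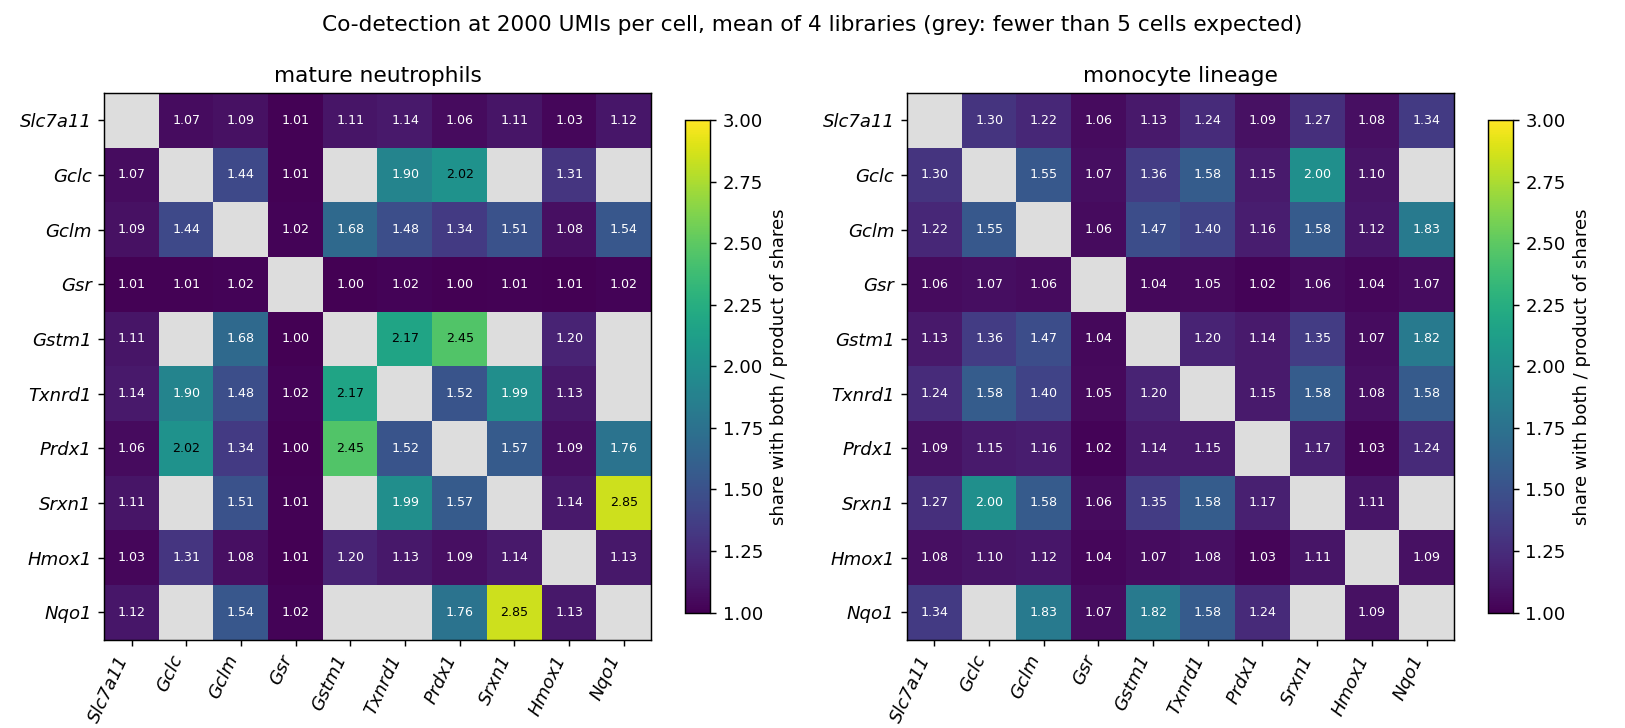
Ratio of the share of cells with both genes to the product of the shares with each (colour and number, mean of 4 libraries). All pairs of the 10 genes are shown in mature neutrophils and in the monocyte lineage, at 2000 UMIs per cell. Grey marks the diagonal and pairs with fewer than 5 cells expected to hold both genes after thinning in a library. Ratios run up to 2.85 in mature neutrophils and up to 2.00 in the monocyte lineage, with Gsr near 1 throughout.

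The genes whose levels followed each of the 10 most closely were found by Pearson's r of log2(CPM + 1) over 36 sums of library and class, among 5692 genes, with classes of 1 library sharing that library. Slc7a11 was nearest to Clec4e (0.91) and to Gsr (0.91), 1 of the 10 genes itself. Gsr was nearest to Pgd (0.92), an NADPH-producing enzyme of the pentose phosphate pathway, and to Fgd4 (0.91). Gclm was nearest to Mafg (0.82), which encodes a small MAF partner of NRF2, and to Creg1 (0.75). Srxn1 was nearest to Sqstm1 (0.87) and Ampd3 (0.81), Prdx1 to Psap (0.85) and Slc43a2 (0.83), and Txnrd1 to Ywhag (0.86) and Cltc (0.82). Hmox1 was nearest to Cebpb (0.87) and Lgals3 (0.85), Gstm1 to Ap3s1 (0.82) and Cebpa (0.78), Gclc to Brox (0.78) and Sod1 (0.73), and Nqo1 to Rab31 (0.73) and Rras (0.73). These values rank genes and carry no test.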

How the data were processed

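Bone cells of 2 Ctrl and 2 HLU mice were analysed, 1 library each. Per the submitters' processing notes the authors used Cell Ranger 6.0.0 on mm10 and Seurat 4.1.0; they deposited raw UMI counts per gene and barcode, without normalization. Barcodes with 1000 to 40000 UMIs and at most 10% mitochondrial UMIs were kept; kept depth was 45347595 to 87604282 UMIs per library. The study's haemoglobin limit and doublet removal were applied only as alternatives, so doublets stay in the main results (Scrublet scores in scanpy 1.11.5 marked 5.87% to 7.59% of barcodes).

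Cells were classed by marker genes. Neutrophils had at least 5% of UMIs from S100a8 and S100a9 and at least 3 mature or 4 immature markers. The monocyte lineage had at least 5 markers and under 5% of UMIs from S100a8 and S100a9. Resident macrophages, granulocyte progenitors and dendritic cells were kept out of it. Skeletal cells had at least 4 markers, at least 1% of UMIs from them and under 2% from S100a8 and S100a9. Cells in several classes were left out. The thresholds were set after marker values were seen, and the genes, lists and comparisons were chosen with earlier results of these data known. Creg1-high barcodes lay in no class and had at least 3 Creg1 UMIs making up 0.1% of their UMIs.

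Counts were summed per library and class (at least 20 cells) and tested with edgeR 4.0.16 in R 4.3.3 (its quasi-likelihood test, TMM factors and own filter on low counts; calls are at an adjusted p under 0.05), with the library as a block between classes. The study compared single cells with a rank test; sums per mouse were used here because cells of 1 mouse are not replicates. The standard errors given with edgeR's fold changes were worked out as the absolute log2 fold change divided by the square root of the F statistic. Shares and co-detection used cells thinned to 2000 UMIs. Floors (3 UMIs) cover counting error only. Named were the 10 genes, up to 4 pathway genes per direction and comparison among those past the threshold, and the 2 most alike genes of each. Alternatives were DESeq2 1.42.0, no filter, no TMM factors, each library left out, the replicate block, haemoglobin at most 0.2%, doublets left out, 1 more marker per class, and 1000 UMIs. The tests were first tried on simulated data. Other steps used Python 3.11.15, numpy 2.4.6 and scipy 1.17.1. The replicate labels do not say that a number marks a shared litter, batch or day.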

Additional observations from a re-analysis of the deposited data

How the results depend on the processing

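Between classes, the direction and call of the genes held in 226 results under other settings, where 5 calls were lost, 5 gained and 4 signs reversed, and in 146 with a library left out, where 10 were lost, 1 gained and 3 reversed. Reversals were Gclm in the monocyte lineage against mature neutrophils (0.11 without TMM factors) and Nqo1 there (0.014 with DESeq2, 0.051 without the filter, 0.82 without TMM factors). With a library left out, Nqo1 there ran from -0.28 to 0.54, Gstm1 in mature against immature neutrophils from -0.53 to 0.027, and, in HLU against Ctrl, Txnrd1 from -0.090 to 1.25 over all barcodes and from -0.22 to 1.73 in skeletal cells, and Hmox1 from -1.88 to 0.037 in mature neutrophils. The cause was not tested.

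Counts between conditions moved more. Of the 10 genes, DESeq2 called 2 over all barcodes, where it called 4674 of all 15385 genes tested. Without the filter on low counts 1 of the 10 was called in mature neutrophils, 1 in immature neutrophils and 1 in skeletal cells. In those fits 1065 of 16355, 1284 of 18379 and 941 of 19906 genes were called. Over all genes, mature neutrophils gave 351 calls, 1065 without the filter and 136 without doublets; immature neutrophils gave 312, 584 with DESeq2, 1284 without the filter and 4 without doublets. The monocyte lineage gave 0, 71 with DESeq2 and 394 without the filter, and skeletal cells 0, 303 and 941. Inflammatory against classical monocytes gave 2244 and 1417 with DESeq2, and 1469 to 1958 with a library left out.

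With a library left out, called genes among the 10 ran from 0 to 6 over all barcodes, in mature neutrophils and in the monocyte lineage, from 0 to 4 in immature neutrophils and from 0 to 3 in skeletal cells. Calls over all genes ran from 848 to 7726, 138 to 3103, 0 to 3926, 0 to 3966 and 11 to 514 for all barcodes, mature neutrophils, immature neutrophils, monocyte lineage and skeletal cells. With the replicate block, which pairs samples that share only a number, 552 genes were called in mature neutrophils, 27 in the monocyte lineage and 93 in skeletal cells, against 351, 0 and 0; calls among the 10 genes were the same in count. Deviations of same-numbered samples correlated at -0.10 to 0.09. The share of mature neutrophils with a Slc7a11 UMI fell from 77.4% to 62.5% at 1000 UMIs, and co-detected pairs from 35 to 26. The HLU skeletal sums rest on 33 and 88 cells.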

Other observations

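Basophils, mast cells and erythroid cells are described in the libraries with at least 20 such cells. Basophils and mast cells of HLU 1 (27 cells) and HLU 2 (44 cells) held 595 and 119 CPM of Gclc and 1015 and 168 CPM of Gclm. Erythroid cells of HLU 1 (51 cells) and HLU 2 (384 cells) held 983 and 327 CPM of Gclm, and 75.2 and 25.9 CPM of Gclc. In each case HLU 1 was the higher library, and with 1 group represented no comparison of conditions was possible. The 49 resident macrophages of HLU 2 also held 8804 Prdx1, 1187 Txnrd1 and 1626 Slc7a11 CPM.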
